A study of Saccharomyces cerevisiae with 13 samples.

Results

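Of the 5694 genes listed in the deposited tables, 135 had at least 60 monosome footprints in the rich medium, summed over both replicates, and 0 disome footprints there. They were chosen by these measured counts, from 2572 genes that reached 60 monosome footprints, so that they made up 5.25% of the genes translated at this level. The study measured monosome footprints, disome footprints and mRNA in budding yeast. Rich medium here means YPD, with cells labelled as strain BY4742 (MATα, with the alleles his3Δ1 leu2Δ0 lys2Δ0 and a ura3 deletion), and 3-AT means cells labelled as S288C in synthetic complete medium that lacked histidine and held 100 mM 3-AT (3-amino-1,2,4-triazole), an inhibitor of histidine biosynthesis. Both cultures grew at 30 °C. Since the labelled strain differs between the cultures as the medium and the inhibitor do, the parts of the 3 in any difference cannot be told apart. Each assay had 2 biological replicates in each medium, and 1 further library from the rich medium held footprints of transcripts bound by 2 ribosomes.

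When a ribosome stops on an mRNA and the next ribosome runs into it, the pair protects a longer stretch of mRNA from RNase I than a single ribosome does. Disome-seq reads these longer footprints, while monosome-seq reads the footprints of single ribosomes. The monosome count of a gene depends on the amount of its mRNA and on the ribosomes that each transcript carries. In yeast, collided ribosomes at strong stalls can be recognised by the ubiquitin ligase Hel2, which starts the quality control of the stalled peptide and mRNA. The study proposes that the disomes of growing cells may lack the structure that recruits Hel2. A shortage of histidine stops ribosomes with a histidine codon, CAC or CAT, in the A site.

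The disome-seq libraries held from 18790 to 47391 footprints, the monosome-seq libraries from 230583 to 800994 and the mRNA-seq libraries from 544499 to 2836320 reads, and the control library held 401682 footprints on these genes. These are totals of the length classes that were deposited. For disome-seq this class is 55 to 65 nt, and every disome count given here is of that class. The study also describes a shorter class of disome footprints, with a larger share under histidine starvation. The shorter class was not counted here, so a disome count of 0 does not cover it. The marker genes of the strains did not match the stated genotypes in full. URA3, a gene of uracil synthesis, had 138 and 181 mRNA reads in the rich medium and 22 and 14 in 3-AT, and LYS2, a gene of lysine synthesis, was listed at 0 in all 12 libraries of the 3 assays. The strain is therefore given as the labels have it.

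All 82098 disome footprints of the rich medium fell outside the 135 genes. A count of 0 there allows up to 3 footprints, or 36.5 RPM (counts scaled to the total of a library's table) over both libraries. The rich-medium tables held 17.1 monosome footprints for each disome footprint. At that ratio the monosome footprints of the 135 genes correspond to 3.50 disome footprints for the gene with the fewest, 4.67 for the median gene and 25.2 for the gene with the most. The first of these is set by the minimum of the rule. The other 2437 genes had a median of 3.72 disome footprints per 100 monosome footprints, below the ratio of the totals, so these values are high for a typical gene.

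**Figure D1:**
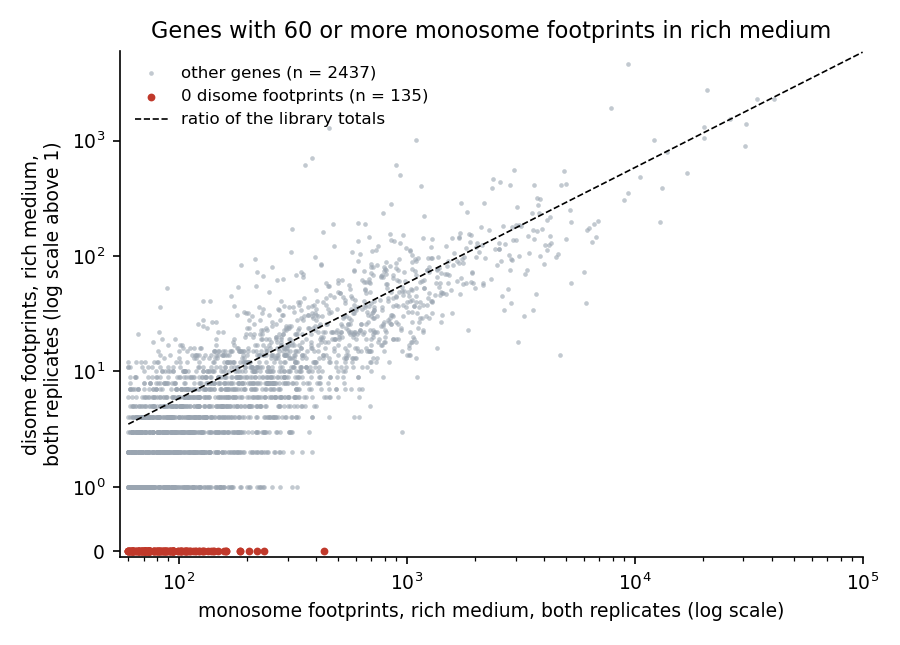
Monosome footprints (x axis, log scale) and disome footprints (y axis, log scale above 1) in the rich medium, summed over both replicates, for the 2572 genes with 60 or more monosome footprints. Each point is a gene, red points are the 135 genes with 0 disome footprints, grey points are the other 2437 genes, and the dashed line is the ratio of the library totals. The red points lie at the left end of the x axis, with AIM29 alone above 300 monosome footprints.

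Most of the 135 genes lay close to the minimum. Between 60 and 79 monosome footprints, 67 of 424 genes (15.8%) had no disome footprint. The share was 8.77% from 80 to under 120 footprints (49 of 559 genes), 2.99% from 120 to under 200 (15 of 502) and 0.368% at 200 or more (4 of 1087). Just inside the rule, 12 genes had 60 to 62 monosome footprints, among them SNU71 of the U1 snRNP with 36 and 24 in replicates 1 and 2, the lipid kinase gene VPS34 with 34 and 27, and the sterol regulator gene UPC2 with 36 and 26. Another 9 genes without disome footprints had 57 or 58 monosome footprints and stayed outside, such as the gene of the DNA polymerase subunit POL31 with 29 and 28. On the other side, 239 genes of 60 or more monosome footprints had exactly 1 disome footprint, and the 5 with the most monosome footprints were MAM3 (202 and 129), FCF1 (175 and 137), ZRC1 (159 and 118), GSC2 (149 and 107) and SVL3 (135 and 101).

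The disome-seq replicates were also read against each other. Of 305 genes with 60 or more monosome footprints and 0 disome footprints in replicate 1, 44.3% had 0 in replicate 2 as well, against 35.3% of the 399 genes with 1 footprint and 14.6% of the 2267 genes with 1 or more in replicate 1. In the other direction, 29.0% of the 465 genes at 0 in replicate 2 were at 0 in replicate 1, against 22.8% of the 430 genes with 1 footprint. A gene at 0 in either replicate had a median of 1 disome footprint in the other. Genes at 0 also had fewer monosome footprints, with a median of 87 for replicate 1, against 182 for genes with 1 or more there.

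AIM29 (YKR074W, chromosome XI), which encodes a co-chaperone in the folding of the elongation factor eEF1A, had the most monosome footprints of the 135 genes. It had 280 and 152 in replicates 1 and 2 of the rich medium, or 300 RPM ± 70.1 (SD, n = 2), and 414 and 554 mRNA reads. Its coding sequence is 468 nt long and holds 5 histidine codons, of which 3 lie between codons 91 and 110. That stretch (chrXI:579479-579538, plus strand, RefSeq R64) is shown as the densest in histidine codons of the gene, with these codons in capitals.
AIM29: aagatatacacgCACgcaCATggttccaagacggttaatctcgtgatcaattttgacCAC
The control library had 21 footprints on AIM29. In 3-AT the gene had 27 and 36 monosome footprints and 1 and 0 disome footprints.

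The next 3 genes by monosome footprints all act in signalling or traffic through small GTPases or on chromatin. YPT31, a Rab GTPase of the late Golgi, had 130 and 107 monosome footprints on 545 and 724 mRNA reads. BRE1, the ubiquitin ligase of histone H2B, had 129 and 91, and RAS2, a GTPase that activates adenylate cyclase, had 124 and 80. These 4 genes were the only ones of the 135 above 200 monosome footprints. YPT32, the paralog of YPT31, was also among the 135 genes, with 57 and 35 monosome footprints on 160 and 219 mRNA reads. So was CDC25, the exchange factor of Ras, with 71 and 51.

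Among the other genes of the first 15 were 4 that work at the cell surface. These were the aspartic protease gene YPS7 (102 and 84 monosome footprints), the eisosome gene SUR7 (90 and 71), the chitin synthase gene CHS1 (81 and 68) and the arginine permease gene CAN1 (83 and 46). GAL11, a tail subunit of Mediator, had 116 and 69, MTR2 of the mRNA export receptor 98 and 63, and RNH70, an exonuclease of RNA maturation, 95 and 63. The retromer gene VPS35 had 82 and 61, EFR3 of the plasma membrane kinase complex 79 and 62, the mitochondrial acyl transferase gene MCT1 95 and 44, and DOS2 87 and 47. In the rich medium the monosome RPM of the replicates lay furthest apart for AIM29 and MCT1.

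**Figure D2:**
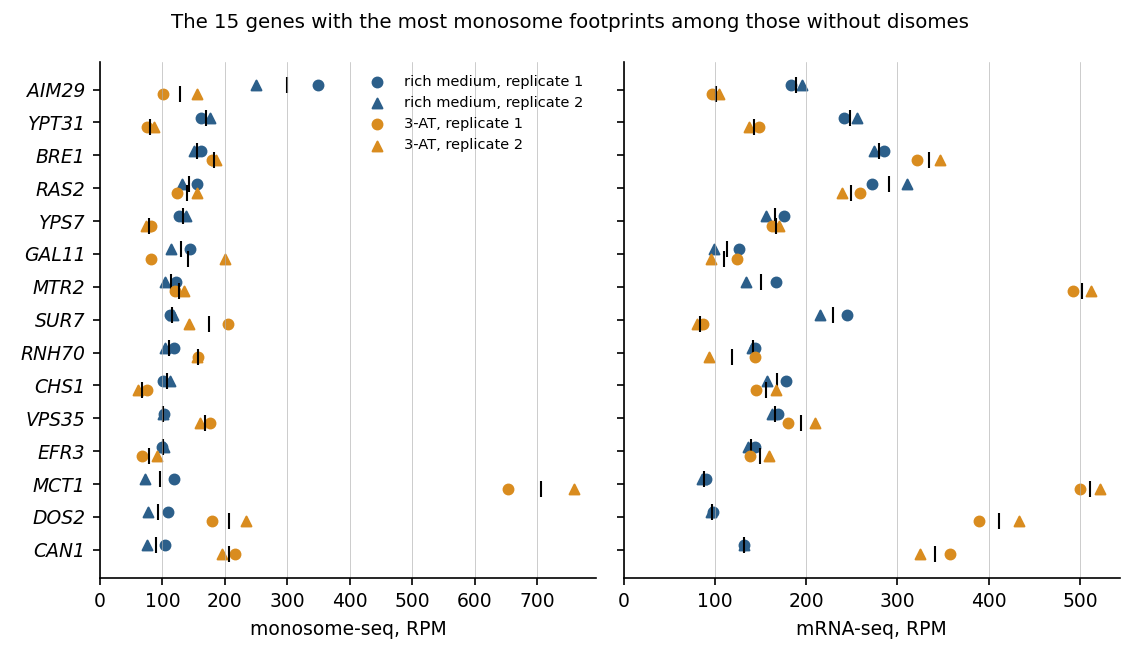
Monosome-seq (left) and mRNA-seq (right) in RPM for the 15 genes with the most rich-medium monosome footprints among the 135. Circles and triangles are replicates 1 and 2, blue is the rich medium, orange is 3-AT, and black ticks are the means of the 2 replicates. AIM29 has the highest monosome value in the rich medium (300 RPM), and MCT1 the highest monosome value in 3-AT (706 RPM).

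By function, as annotated in RefSeq and sorted by hand after the members were known, the 135 genes spread over many processes. The largest groups were traffic through Golgi, endosomes and vesicles (23 genes), mitochondria (18) and transcription and chromatin (18), followed by signalling (11), enzymes of small-molecule metabolism (10) and replication and chromosome segregation (9). Smaller groups were the ER (8), RNA processing (8), transporters (7), the cell surface (7) and lipid metabolism (3), and 7 genes had another role or none known. The 4 genes AIM29, EFM4, RKM1 and HEL2 act on the translation machinery itself, through folding or methylation of its proteins or through the sensing of collisions, and HUL5 and SAN1 are ubiquitin ligases of protein quality control.

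Some complexes and pathways had several members, counted on lists that do not hold every gene of a process. Beside these counts stands the share of 5.25% over all 2572 genes. The list of general transcription, Mediator and chromatin leaves out GAL11 and BRE1. It had 2 of 26, both of them subunits of the general transcription factor TFIIE. TFA1 had 37 and 31 monosome footprints and TFA2 34 and 27. Of the mitochondrial ribosome, 29 genes reached 60 monosome footprints and 4 had no disome footprint, namely MRPL7 (47 and 40), MRPL3 (35 and 43), MRP4 (47 and 26) and MRPL15 (37 and 28). Mitochondrial import and inner membrane organisation had 3 of 26, with the Tom complex gene TOM5 (62 and 48), the cristae gene MIC60 (60 and 34) and TIM18 (41 and 26). Vesicle transport had 4 of 59, with the ESCRT-III gene DID4 (77 and 49) and the AP-1 gene APS1 (45 and 29) beside YPT31 and YPT32. ER translocation and glycosylation had 2 of 36, the translocon gene SEC62 (67 and 55) and the gene of a subunit of the signal recognition particle receptor (31 and 37). Processing and export of tRNA and mRNA had 3 of 42, the Elongator gene ELP4 (57 and 37), the tRNA methyltransferase gene TRM9 (44 and 23) and MTR2. Amino acid synthesis outside histidine had 2 of 57, ARG7 (43 and 31) and MET14 (33 and 27). From 60 to under 120 monosome footprints, the lists in this order had 2 of 12, 4 of 24, 3 of 11, 2 of 23, 1 of 16, 2 of 19 and 2 of 6 genes. Over all genes the share was 15.8% from 60 to 79 footprints and 8.77% from 80 to under 120. Whether any list differs from these shares was not tested.

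The lists of cytosolic ribosomal proteins (0 of 138), ribosome biogenesis (0 of 134) and translation initiation and elongation (0 of 51) held none of the 135 genes. Nor did those of the proteasome (0 of 35), aminoacyl-tRNA synthetases (0 of 21) or glycolysis and fermentation (0 of 26). In all, 14 of the 26 lists held none, lipid and sterol synthesis (0 of 46) and RNA polymerase subunits (0 of 25) among them. Except for ribosome biogenesis, the lists named first, up to glycolysis and fermentation, had few genes at low counts, where most of the 135 lay. From 60 to under 120 monosome footprints they had 2, 5, 4, 0 and 1 genes, while ribosome biogenesis had 38. By experimental annotation of location, 27.4% of the 135 genes and 26.5% of the other 2437 had a product in the nucleus. A product in mitochondria was annotated for 23.7% and 18.9%, and for 22.4% of the 116 genes below 120 monosome footprints against 16.8% of the others there. None of these shares was tested.

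HEL2, the collision sensor, was itself among the genes without disome footprints. It had 57 and 44 monosome footprints and 238 and 261 mRNA reads in the rich medium. In the control library it had 84 footprints at 42 positions, with at most 9 at a position, the second highest sum of the 135 genes after the peroxiredoxin gene PRX1 with 139. Of the list of collision sensing and rescue, 21 genes reached 60 monosome footprints and HEL2 was the only member. Of the 135 genes, 5 had no control footprint, namely RRT14, FUI1, NRT1, MSC2 and TAF7, which allows up to 3 counts each.

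The coding sequences of the 135 genes had a median length of 1461 nt and a GC content of 39.1%, and those of the other 2437 genes had medians of 1365 nt and 40.2%. The median length was 1449 against 1347 nt between 60 and 79 monosome footprints and 1569 against 1367 nt from 80 to under 120, but 821 against 1335 nt for the 4 genes at 200 or more. Histidine made up a median of 1.91% of codons against 1.95%. Runs of 3 lysine codons occurred in 34 of the 135 genes (25.2%) and in 24.5% of the others, and pairs of proline codons in 74 (54.8%) and 52.7%. Coding sequences under 500 nt numbered 7 of 135 (5.19%) against 10.5% of the others. This share was not taken within bands of monosome count, and 1083 of the others had 200 or more monosome footprints. These are descriptions with no test. Of the 135 coding sequences, 126 held no stretch of 28 nt that another coding sequence or another position shared, and the lowest share of unique stretches was 92.9%, in the transporter gene NRT1. MRP4 alone overlapped another annotated coding sequence.

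The longest coding sequences of the set belonged to the phospholipase D gene SPO14 (5052 nt, 107 monosome footprints), the DNA translocase gene ULS1 (4860 nt, 70), CDC25 (4770 nt, 122), the chromatin remodeller gene SWR1 (4545 nt, 72) and the cohesin loader gene SCC2 (4482 nt, 74). The shortest were those of TOM5 (153 nt, 110 monosome footprints), YSY6, a small ER membrane protein (198 nt, 88), QCR9 of respiratory complex III (201 nt, 73), the uncharacterised YDL085C-A (207 nt, 73) and SDH8, an assembly factor of succinate dehydrogenase (417 nt, 63). The 4 shortest are printed whole from RefSeq R64, since a disome footprint of 55 to 65 nt covers a large part of each. Histidine codons are in capitals. TOM5 lies at chrXVI:797557-797709 on the plus strand, YSY6 at chrII:565231-565428 on the plus strand, QCR9 at chrVII:859063-859476 on the minus strand in 2 exons, and YDL085C-A at chrIV:302464-302670 on the minus strand.
TOM5: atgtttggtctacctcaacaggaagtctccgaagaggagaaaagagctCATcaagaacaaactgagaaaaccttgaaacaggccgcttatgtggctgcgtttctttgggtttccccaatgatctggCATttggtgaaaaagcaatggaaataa
YSY6: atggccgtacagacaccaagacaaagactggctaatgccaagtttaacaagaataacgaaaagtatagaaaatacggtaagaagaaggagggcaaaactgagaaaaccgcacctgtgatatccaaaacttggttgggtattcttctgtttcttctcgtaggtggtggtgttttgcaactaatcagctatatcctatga
QCR9: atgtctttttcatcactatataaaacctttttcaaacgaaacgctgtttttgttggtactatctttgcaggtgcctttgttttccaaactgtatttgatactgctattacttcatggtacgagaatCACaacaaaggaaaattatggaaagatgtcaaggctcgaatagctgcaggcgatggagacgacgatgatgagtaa
YDL085C-A: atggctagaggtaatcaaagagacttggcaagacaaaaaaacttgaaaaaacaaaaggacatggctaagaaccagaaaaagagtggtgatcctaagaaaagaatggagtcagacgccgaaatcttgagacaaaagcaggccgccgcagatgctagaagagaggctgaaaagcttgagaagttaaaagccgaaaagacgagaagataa
TOM5 holds 2 histidine codons, QCR9 1, and YSY6 and YDL085C-A none. In 3-AT their disome counts in replicates 1 and 2 were 2 and 0 for QCR9 and 0 in both for the other 3. QCR9 had 135 and 79 monosome footprints there, while TOM5 had 4 and 8, YSY6 3 and 3 and YDL085C-A 1 and 2, fewer than most of the 135 genes. Over the 135 genes, those without a 3-AT disome footprint had a median of 23.5 monosome footprints there, against 47 for those with one. Whether the low monosome counts account for the zeros was not tested.

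In the rich medium the 135 genes carried fewer footprints per mRNA than the others, with a median log2 ratio of monosome RPM to mRNA RPM of -0.60 against -0.27. The rule used the monosome counts, so this is a description. Within the band of 60 to 79 footprints the median mRNA count was 386 against 384 reads, and from 80 to under 120 it was 460 against 500. In 3-AT the median log2 ratio was -0.55 for 134 genes and -0.28 for 2436 others. The protein kinase gene FRK1 had 0 monosome footprints in both 3-AT replicates.

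The mRNA counts were not used by the rule and were compared between the media with edgeR. ARG7, the ornithine acetyltransferase of arginine synthesis, had 135 and 163 mRNA reads in the rich medium and 1059 and 645 in 3-AT, in smaller libraries. After scaling it was 4.06 ± 0.09 (log2, SE) higher in 3-AT, with an adjusted p of 9.257e-80 in edgeR (quasi-likelihood test, adjusted by Benjamini-Hochberg). The vacuolar mannosidase gene AMS1 was 3.05 ± 0.14 higher, IST1 of endosomal sorting 2.28 ± 0.12, MCT1 2.21 ± 0.10, and BNA4, an enzyme of NAD synthesis from tryptophan, 2.06 ± 0.14. At the other end FRK1 had 269 reads over both replicates of the rich medium and 3 and 1 in 3-AT, which was 4.47 ± 0.40 lower on the log2 scale. FRK1 and TOS4 passed the filter on low counts only through the rich medium, where they are high. TOS4, a gene of the G1/S transition, fell by 3.57 ± 0.30, the condensin gene YCS4 by 3.39 ± 0.26, MLO50 by 2.54 ± 0.23 and SCC2 by 2.05 ± 0.27 (log2, SE). For these 10 genes the scaled counts of the media did not overlap, and each call held under all 9 alternatives. In bulk cultures, fewer cells with a transcript and less transcript per cell cannot be told apart.

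All 135 genes passed the filter on low counts. At an adjusted p of 0.05, edgeR called 40 higher and 59 lower in 3-AT, against 37.7% of all 5290 genes tested in each direction. With library totals in place of TMM scaling the counts were 58 higher and 40 lower, since the median of all genes moved from 0.01 to 0.33 on the log2 scale and the share of higher calls among all genes from 50% to 63.7%. Changes are therefore relative to the scaling, and small ones turn with it. The median of the 135 genes was -0.17, against -0.46 for the other 2437. These sets differ in expression, with median rich-medium mRNA counts of 449 and 787 reads. None of the cytosolic ribosomal protein genes is among the 135, and 138 of 139 were lower in 3-AT. The medians were not compared at like counts, and their difference was not tested.

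By function, genes of small-molecule metabolism rose or did not pass the test. Of 10, 6 were higher and 0 lower, among them ARG7, AMS1, BNA4 and the histidinol phosphatase gene HIS2, with 8 and 0 under library totals. Of the 9 genes of replication and chromosome segregation 6 fell and 0 rose, among them YCS4, SCC2 and the origin recognition gene ORC2 (-0.57 ± 0.15, log2, SE), with 2 higher and 4 lower under library totals, where ORC2 did not pass. All 4 genes that act on the translation machinery fell, AIM29 by 1.24 ± 0.13, EFM4 by 1.26 ± 0.16, RKM1 by 1.52 ± 0.19 and HEL2 by 0.62 ± 0.16 (log2, SE). Under library totals HEL2 did not pass and the other 3 fell. Mitochondrial genes went both ways, with 9 of 18 higher and 8 lower (10 and 6 under library totals). The 23 genes of Golgi, endosome and vesicle traffic had 10 higher and 7 lower, but 13 and 4 under library totals. Of the 18 genes of transcription and chromatin 5 were higher and 10 lower, but 8 and 7 under library totals. Among the mitochondrial genes MRP4 (-1.39 ± 0.17), MRPL15 (-1.26 ± 0.22), MRPL7 (-0.80 ± 0.18) and MRPL3 (-0.57 ± 0.16, not past the threshold under library totals) were lower, while QCR9 (1.48 ± 0.11), SDH8 (1.84 ± 0.13) and the processing protease gene MAS1 (1.30 ± 0.11) were higher. The groups were drawn up by hand and are small, and beside them stand the 37.7% of all genes called in each direction and the 24.4% higher and 57.9% lower among the other 2437 genes.

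**Figure D3:**
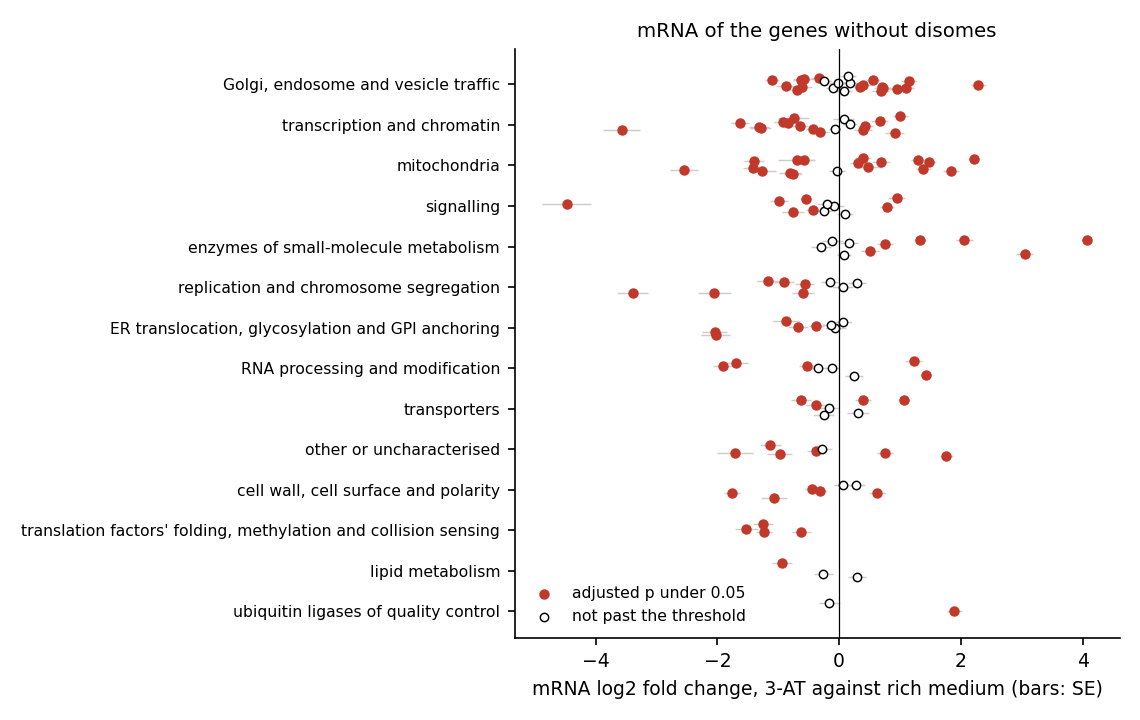
Log2 fold change of mRNA in 3-AT against the rich medium (x axis, bars are SE) for the 135 genes, by functional group (y axis). Red points passed an adjusted p of 0.05 and open points did not. ARG7 (4.06) lies furthest to the right and FRK1 (-4.47) furthest to the left, and no red point of the metabolic enzymes lies below 0.

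Whole lists, not restricted to the 135 genes, were read in the same fit. Of the 7 genes of histidine biosynthesis, 6 were higher and 1 lower in 3-AT, with a median of 2.68 (log2) and with 6 and 0 under library totals. Among the 7 is HIS3, for which the allele his3Δ1 is labelled in the rich medium only. It had 149 and 240 mRNA reads there and 934 and 578 in 3-AT, and allele and medium cannot be told apart. HIS2 was the one of the 7 without a rich-medium disome footprint. HIS2 had 299 and 388 mRNA reads in the rich medium and 367 and 223 in 3-AT, and was 1.33 ± 0.10 higher (log2, SE). Other amino acid synthesis had 52 of 76 genes higher and 14 lower, and 60 and 8 under library totals. Of the mitochondrial ribosome, 18 of 77 genes were higher and 31 lower, with a median of -0.21, which turned to 0.11 under library totals (29 higher, 24 lower). Vesicle transport had 22 of 83 higher and 39 lower with a median of -0.25, which turned to 0.07 (30 and 28). Of its members DID4 and APS1 were higher (0.70 ± 0.09 and 0.95 ± 0.14) while YPT31 and YPT32 were lower (-1.11 ± 0.11 and -0.58 ± 0.17). YPT32 did not pass under library totals, under DESeq2 or without the second 3-AT library.

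In 3-AT, disome footprints of 55 to 65 nt appeared on 89 of the 135 genes (65.9%), and 47 (34.8%) had at least 1 in each replicate. Shorter disome footprints are not in these counts. The other 2437 genes had a disome footprint in 78.5% of cases, and 53.5% had at least 1 in each replicate. Of the 89 genes, 22 had 1 footprint, 57 had 2 to 9 and 10 had 10 or more. The 135 genes together had 231 and 226 disome footprints on 4181 and 3792 monosome footprints, or 5.53 and 5.96 per 100 in replicates 1 and 2. The other 2437 genes had 7.43 and 7.55 per 100, and all genes 7.89 and 8.15. The values of the 135 genes were lower in both replicates. With 2 libraries of each kind this difference was not tested.

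Genes of similar monosome count were compared by how many disome footprints they had in the rich medium. From 60 to under 120 monosome footprints, 65.5% of the 116 genes without a rich-medium disome had a disome footprint in 3-AT, against 65.6% of the 189 genes with 1, 69.5% of 167 genes with 2 and 64.6% of 144 genes with 3. The share was 81.2% for 149 genes with 6 to 10 and 77.8% for 45 genes with 11 or more. Per 100 monosome footprints in 3-AT, the genes without rich-medium disomes had 5.62 and 6.35 disome footprints in replicates 1 and 2. Genes with 1 had 8.82 and 9.55, genes with 2 had 4.93 and 6.55, and genes with 3 had 5.64 and 6.26. Genes with 6 to 10 had 12.7 and 13.4, and those with 11 or more had 21.9 and 28.5, of which a large part came from FES1 with 516 footprints. Without FES1 the last class had 11.4 over both replicates. Genes with 4 to 5 had 8.23 and 7.03, and 74.0% of those 173 genes had a 3-AT disome footprint. In these sums the genes at 0 lay within the range of those with 1 to 3 and below those with 4 or more. This place rests in part on APS1. Without the gene with the most disomes of each class, the value over both replicates was 5.36 at 0. It was 8.14 at 1, 5.57 at 2 and 5.57 at 3, so that the genes at 0 then lay lowest. Per gene, over genes with 20 or more monosome footprints in 3-AT, the medians were 3.81 at 0, 4.76 at 1, 5.00 at 2, 4.98 at 3, 7.21 at 4 to 5, 8.32 at 6 to 10 and 9.09 at 11 or more, so that by this measure the genes at 0 lay below every other class. None of this was tested.

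**Figure D4:**
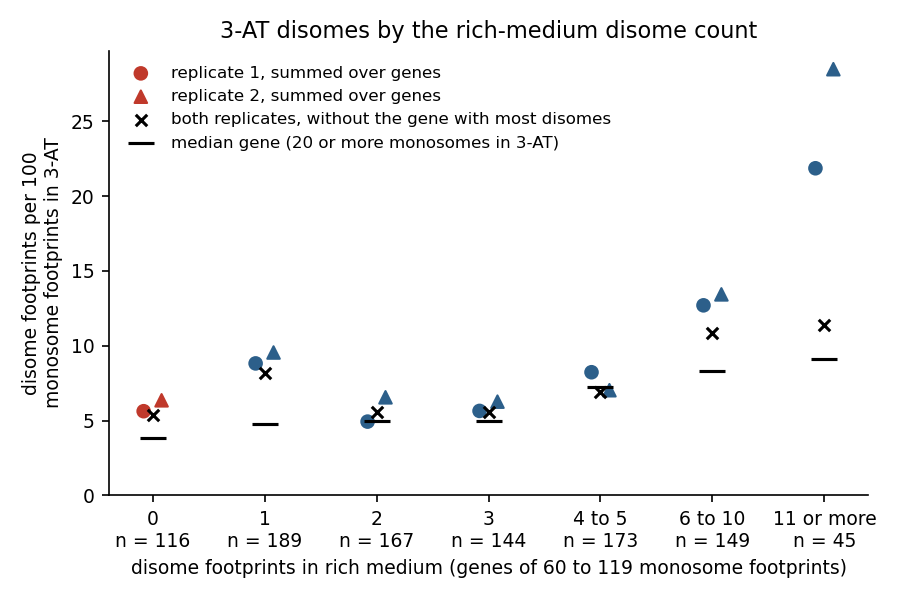
Disome footprints per 100 monosome footprints in 3-AT (y axis) for genes from 60 to under 120 rich-medium monosome footprints, by their disome count in the rich medium (x axis, with the number of genes). Circles and triangles are replicates 1 and 2 summed over genes, crosses leave out the gene with the most disomes of each class, and bars are medians over genes; red marks the genes without rich-medium disomes. The red points (5.62 and 6.35) lie near those of the classes with 2 and 3 footprints and below those with 6 or more.

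The 10 genes with 10 or more footprints were APS1, ARG7, MCT1, MAS1, TGL1, IST1, RAS2, BNA4, HUL5 and PCL7. APS1, the small subunit of the AP-1 adaptor, had 18 and 25 disome footprints on 52 and 33 monosome footprints. ARG7 had 21 and 14 on 162 and 168, MCT1 13 and 19 on 175 and 175, MAS1 9 and 16 on 55 and 32, and TGL1, a steryl ester hydrolase of lipid droplets, 11 and 9 on 26 and 36. APS1, MAS1 and TGL1 lay above the ratio of the 3-AT totals, at which they would have had 6.81, 6.97 and 4.97 disome footprints over both replicates, while ARG7 and MCT1 lay near it with 26.4 and 28.0. By edgeR, APS1 was 2.57 ± 0.37 higher in disome-seq than in monosome-seq (log2, SE, adjusted p = 1.108e-06), TGL1 1.91 ± 0.50 (adjusted p = 0.003529) and MAS1 1.76 ± 0.45 (adjusted p = 0.002892). ARG7 (0.31 ± 0.33) and MCT1 (0.10 ± 0.33) did not pass.

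The stretches of 20 codons with the most histidine codons are shown for these 5 genes, since 3-AT acts through histidine. Histidine codons are in capitals, and the first such stretch is given where several tie. The windows are APS1 chrXII:500636-500695, ARG7 chrXIII:395432-395491, MCT1 chrXV:756707-756766 and MAS1 chrXII:493033-493092, all on the minus strand, and TGL1 chrXI:181055-181114 on the plus strand (RefSeq R64).
APS1: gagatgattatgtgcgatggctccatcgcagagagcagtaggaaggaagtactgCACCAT
ARG7: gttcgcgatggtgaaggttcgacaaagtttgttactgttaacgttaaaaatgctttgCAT
MCT1: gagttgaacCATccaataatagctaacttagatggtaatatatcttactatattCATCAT
MAS1: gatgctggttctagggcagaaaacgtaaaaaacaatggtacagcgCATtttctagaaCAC
TGL1: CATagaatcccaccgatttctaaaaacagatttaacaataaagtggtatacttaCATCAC
The whole coding sequences hold 4 histidine codons in APS1, 2 in ARG7, 8 in MCT1, 9 in MAS1 and 19 in TGL1. In APS1, MCT1 and TGL1 the window holds a pair of adjacent histidine codons, and in ARG7 no window held more than 1. How often such pairs occur in other genes was not counted, so nothing is read from them. The windows end on a histidine codon because the first such stretch is shown. The deposited counts are sums per gene and do not place a footprint on any of these codons. Over the 105 genes of the set with 20 or more monosome footprints in 3-AT, disome footprints per monosome footprint and histidine codons per 100 codons had a Spearman rho of -0.07. This is a description across genes, which share libraries and depth, and the value was 0.02 over 2170 other genes.

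At the other end, 46 of the 135 genes had no disome footprint in 3-AT either. Their monosome counts in 3-AT were lower, with a median of 23.5 against 47 for the 89 genes with a disome footprint. A count of 0 over both 3-AT disome libraries allows up to 3 footprints, or 75.1 RPM, and only 15 of the 46 genes had more than that in monosome RPM. The largest was CYT2, the heme lyase of cytochrome c1, with 67 and 50 monosome footprints and 0 and 0 disome footprints. With a floor of 3 disome counts over both libraries, its disome RPM was 3.12-fold below its monosome RPM. By the same floor VPS35 (47 and 37 monosome footprints) was 2.24-fold lower, ORC2 (38 and 42) 2.14-fold, GAL11 (22 and 46) 1.82-fold and MTR2 (32 and 31) 1.68-fold. These genes were picked by a disome count of 0 and their high monosome counts. The folds leave out the error and the spread of the monosome counts. OAF1, an activator of genes for fatty acid oxidation, had 224 and 155 monosome footprints and 1 and 0 disome footprints, where the ratio of the totals gives 30.4.

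Of the 135 genes, 66 passed the filter on low counts for disome-seq against monosome-seq in 3-AT, 36 of them only through their monosome counts, and the calls do not describe all 135. edgeR called 3 higher and 18 lower, and 12.3% and 19.3% of all 2275 genes tested were called higher and lower. Of the 18 lower genes 17 entered the test only through their monosome counts, OAF1 and CYT2 among them, so that a lower disome value was in part set by the filter. Of the called genes, the 3 higher ones and AMS1 passed through both assays, and nothing is read from the number of lower calls. The calls rest on both monosome-seq libraries. Without replicate 1 of monosome-seq, edgeR called 2 of the 66 genes, and without replicate 2 it called 0, with 5 genes at an unadjusted p under 0.05 and 0 of all 2275 genes. APS1 was lost only without replicate 2 of monosome-seq, where its adjusted p by edgeR was 0.337, in a range over the alternatives from 2.27e-10. TGL1, CYT2, VPS35 and ORC2 were lost without either monosome-seq replicate, and MAS1 also without replicate 2 of disome-seq. GAL11 and MTR2 were lost under 6 of 9 alternatives, DESeq2 and the removal of any library among them. DESeq2 on all 4 libraries called 3 higher and 7 lower.

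Monosome footprints were compared with mRNA within 3-AT, in counts that the rule did not use. SDS3, a subunit of a histone deacetylase complex, had 27 and 8 mRNA reads but 106 and 82 monosome footprints, and was 4.35 ± 0.24 higher in monosome-seq (log2, SE, adjusted p = 1.063e-10, edgeR). MRS2, a magnesium channel of mitochondria, was 3.00 ± 0.33 higher, OAF1 2.95 ± 0.15, TOS4 2.88 ± 0.47 and VPS45, a Sec1-type regulator of vesicle fusion, 2.46 ± 0.18. TOS4 rests on 5 and 5 mRNA reads. Lower in monosome-seq were MRS6, the Rab escort protein gene (-2.82 ± 0.38), with 3 and 5 monosome footprints on 123 and 95 mRNA reads, YDL085C-A (-2.76 ± 0.59), AVL9 of late secretion (-2.10 ± 0.39), YSY6 (-2.02 ± 0.47) and the phosphatase regulator gene SIS2 (-1.64 ± 0.26). Of these 5, SIS2 alone passed the filter through both assays, the other 4 only through mRNA. Of the 5 higher genes, OAF1 and VPS45 passed through both, and SDS3, MRS2 and TOS4 only through monosome-seq. Of these 10, YSY6 alone was lost under an alternative, DESeq2, with an adjusted p of 0.0542 and a range over the alternatives from 0.000191.

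Of the 132 genes that passed the filter on low counts, 38 were called higher and 32 lower by edgeR, against 25.3% and 26.2% of all 4694 genes tested. Of these 132, 22 passed only through mRNA and 5 only through monosome-seq, and they include 10 of the 32 lower and 5 of the 38 higher calls. Under library totals the calls were 23 higher and 61 lower, as the median of all genes moved from -0.09 to -0.55 (log2), with 49.1% of all calls higher before and 23.9% after. DESeq2 called 27 higher and 12 lower. HIS2 was lower in monosome-seq by 1.56 ± 0.20 (log2, SE, adjusted p = 5.702e-06, edgeR), with 19 and 33 monosome footprints on 367 and 223 mRNA reads. It had 1 and 0 disome footprints in 3-AT. ARG7, whose mRNA rose most, was 0.43 ± 0.11 lower, a call lost under DESeq2 and without the first mRNA library. HEL2 (0.53 ± 0.27) did not pass, with 22 and 20 monosome footprints and 0 and 2 disome footprints in 3-AT.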

How the data were processed

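The 13 libraries (mRNA-seq, monosome-seq, disome-seq and a control) were grouped by their labels. The deposited tables give raw counts per gene, which the authors did not normalize, and the control table gives counts at each A-site position. A table holds 1 length class of reads: 20 to 30 nt (monosome-seq), 55 to 65 nt (disome-seq), or 28 to 29 nt (mRNA-seq). The authors removed adaptors and rRNA reads, aligned to coding sequences of the R64 genome and discarded multiple alignments (submitters' notes: cutadapt 1.16, Bowtie 1.2.2, TopHat2 2.1.1). The study's methods say that PCR duplicates, recognised by length, sequence and UMI, were counted as 1 read, and do not say whether this was done before the deposited tables were made. A gene missing from a table was counted as 0. RPM were scaled to the total of a table, which is that of its length class and not the depth of the library.

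Sequences, positions and annotation came from RefSeq R64, which paired 5689 of 5694 genes with a coding sequence. The test was that of edgeR 4.0.16, run in R 4.3.3 (TMM, default filter by group, quasi-likelihood F test, Benjamini-Hochberg at 0.05) on the 4 libraries of each comparison, and the code was tested on simulated data. A fit gives a gene 1 spread in all its libraries, whatever the assay. p-values rest on 2 replicates a group. A count of 0 was taken to allow 3 counts, which covers counting error only. Alternatives were library totals, DESeq2 size factors, no filter, DESeq2 1.42.0, a replicate block and leaving out each library.

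The genes and lists were chosen with earlier results of these data known. Genes named with values are the 15 with the most rich-medium monosome footprints, the 5 with the most 3-AT disome footprints, in each test up to 5 largest rises and falls among called genes whose scaled counts did not overlap, members of lists that held 2 or more of the genes, the 5 shortest and 5 longest coding sequences, and genes next to the limits of the rule. HEL2, HIS2, PRX1, EFM4 and the genes listed with 10 or more 3-AT disome footprints were named after their values had been seen. Python 3.11.15 with pandas 2.3.3 and matplotlib 3.10.9 was used for tables and figures.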

Additional observations from a re-analysis of the deposited data

How the results depend on the processing

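The number of genes without disomes depends on the rule. It was 277 at a minimum of 40 monosome footprints, 35 at a minimum of 100, and 374 where 1 disome footprint was allowed, and 75 to 91 when either replicate was left out. Of the 135 genes, 47 had a 3-AT disome footprint in each replicate and 65 to 71 had one when a replicate was left out. In disome-seq against monosome-seq in 3-AT, edgeR called 21 genes of the set, DESeq2 10, the fit with the replicate block 11, and the fits without a library 0 to 14. The cause was not tested. In monosome-seq against mRNA-seq, DESeq2 called 39 against 70, and the fits without a library 53 to 63. For mRNA, the fits without a library called 84 to 101 against 99. With the replicate block the counts were 99 for mRNA and 67 for monosome-seq against mRNA-seq. The labels do not tie replicate numbers across libraries, and replicate differences had correlations of -0.01 to -0.02. Library totals moved mRNA fold changes of all genes up alike, and 21 of the 135 genes changed sign. Among the named genes that passed the threshold under either scaling these were BRE1 (0.25), GAL11 (0.011) and YPS7 (0.010, all log2). Of 113 calls of named genes, 58 held under all 9 alternatives. A count of 0 in 3-AT disome-seq, as in 46 genes, allows up to 75.1 RPM, and 15 of them had a higher monosome RPM. With 1 library of an arm left out, the lone library was taken to vary like the other arm.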
